A study of Homo sapiens with 16 samples.

Results

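The genes described here are 10 genes whose products build, copy or mark chromatin while DNA is being replicated: DNMT1, UHRF1, HELLS, EZH2, CHAF1A, CHAF1B, ASF1B, NASP, SUV39H1 and ATAD2. They were taken as a named list, chosen with earlier results of these data known. Found on the array through its gene annotation, they are 10 of the 19775 genes measured. Each gene is represented by the probe set with the highest mean signal over all 16 arrays, and the other probe sets of the same gene serve as a check. The study exposed cells of the human pancreatic cancer line MIA PaCa-2 to 2.5 µM PP242, a small molecule that blocks the kinase activity of mTOR, or to its DMSO vehicle, for 12 hours. mTOR is the kinase through which nutrients and growth factors control protein synthesis and growth, and it acts on translation partly through the repressor 4E-BP1, which the series title names. Both cytosolic RNA and polysome RNA came from the cells, and the polysome RNA was pooled from the fractions of a 10% to 50% sucrose gradient that carry more than 3 ribosomes per mRNA. Hence the 4 groups are polysome RNA of PP242 cells, cytosolic RNA of PP242 cells, polysome RNA of vehicle cells and cytosolic RNA of vehicle cells, with 4 arrays each and a replicate number from 1 to 4.

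When a replication fork passes, the methyl marks and nucleosomes of the parental strand have to be re-established on the daughter strands. UHRF1 recognises hemimethylated CpG sites and brings in DNMT1, which methylates the new strand, and the helicase HELLS helps methylation reach compacted DNA. CHAF1A and CHAF1B are subunits of the CAF-1 complex, which deposits new histones behind the sliding clamp PCNA and receives them from chaperones such as ASF1B, while NASP holds the soluble reserve of histones. EZH2 and SUV39H1 write repressive methyl marks on histone H3, and ATAD2 is a bromodomain ATPase that binds newly assembled, acetylated chromatin. Many genes of this kind are transcribed as cells enter S phase, by E2F transcription factors.

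The start regions of these genes are shown as a description, and their part in the PP242 differences was not tested. RefSeq promoter windows (GRCh38.p14, 300 bases across an annotated start) were on hand for 9 of the 10 genes, all but ATAD2, and were searched on both strands for 3 motifs. The first was an E2F site written as TTTCCCGC, TTTCGCGC, TTTGGCGC or TTTGCCGC, the second was CCAAT, the site of the factor NF-Y, and the third was the CHR element of cell cycle genes, written TTTGAA or TTCGAA. An E2F match lay in the windows of 4 of the 9 genes, against 3.99% of the 27305 genes with a window. CCAAT lay in 7 of the 9, against 39.7% of all genes, and a CHR match in 1 of the 9, against 19.5%. Stretches of 100 bases follow, 5′ to 3′ on the strand of the gene. Capitals mark the E2F matches in DNMT1, UHRF1, HELLS and EZH2, the CCAAT matches in CHAF1A and ASF1B, and the CHR match in ASF1B. Matches on the other strand read as their reverse complement, and CHAF1A has 2 CCAAT matches that overlap.
DNMT1 (chr19:10194944-10195043, minus strand): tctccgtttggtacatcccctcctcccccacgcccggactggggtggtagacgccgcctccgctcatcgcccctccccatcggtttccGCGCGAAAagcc
UHRF1, first window (chr19:4909411-4909510, plus strand): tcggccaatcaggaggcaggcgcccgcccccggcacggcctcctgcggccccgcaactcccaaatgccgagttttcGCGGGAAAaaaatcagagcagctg
UHRF1, second window (chr19:4909964-4910063, plus strand): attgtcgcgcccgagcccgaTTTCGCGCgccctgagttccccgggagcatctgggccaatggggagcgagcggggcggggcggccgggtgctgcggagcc
HELLS (chr10:94545698-94545797, plus strand): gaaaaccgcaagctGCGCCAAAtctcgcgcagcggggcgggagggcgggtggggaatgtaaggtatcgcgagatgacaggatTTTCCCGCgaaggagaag
EZH2 (chr7:148884282-148884381, minus strand): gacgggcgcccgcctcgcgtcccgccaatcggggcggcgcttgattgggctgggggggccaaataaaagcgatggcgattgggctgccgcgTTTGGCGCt
CHAF1A (chr19:4402550-4402649, plus strand): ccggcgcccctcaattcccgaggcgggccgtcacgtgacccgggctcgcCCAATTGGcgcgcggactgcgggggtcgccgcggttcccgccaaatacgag
ASF1B (chr19:14136580-14136679, minus strand): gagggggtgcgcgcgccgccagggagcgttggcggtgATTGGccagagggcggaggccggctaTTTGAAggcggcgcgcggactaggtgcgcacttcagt
HELLS carried 2 different E2F spellings within this stretch, and UHRF1 carried 1 match in each of 2 of its 3 windows, the 2 shown. These are letter matches in a fixed window and were not tested as binding sites. DNMT1, UHRF1, CHAF1A and ASF1B lie on chromosome 19, and the others on chromosomes 10 (HELLS), 7 (EZH2), 21 (CHAF1B), 1 (NASP), X (SUV39H1) and 8 (ATAD2).

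Signals are RMA values on the log2 scale, on which a difference of 1 is a doubling, and a level of one probe set is not comparable with that of another. The labels do not say whether the 4 replicates of a group are separate cultures, so the p-values may measure only technical spread. Arrays of a group correlated at 0.979 to 0.998. The cytosolic PP242 arrays were the noisiest group, with a median gene SD of 0.245 against 0.147, 0.159 and 0.122 in polysome PP242, polysome vehicle and cytosolic vehicle RNA, and its replicates 2 and 4 had the lowest array weights, 0.360 and 0.251. Of the markers of the line, KRT8, KRT18, KRT19 and VIM gave between 9.18 and 14.4 on every array, while EPCAM stayed between 2.45 and 3.21. Of 11 markers of leukocytes, endothelium, fibroblasts and normal pancreas 9 were measured, at 2.66 to 7.84. The leukocyte genes PTPRC and CD3E read 2.66 to 3.56 and 4.66 to 5.50, the endothelial genes PECAM1 and CDH5 5.49 to 6.02 and 2.68 to 3.91, and the pancreas genes CPA1 and INS 2.72 to 3.97 and 3.45 to 5.42. The fibroblast collagens COL1A1 and COL3A1 read 6.16 to 7.33 and 5.74 to 7.84, and LUM 3.11 to 3.58. Of these 9, PP242 changed COL3A1, which was lower at -1.01 ± 0.16 on polysomes and -0.84 ± 0.16 in the cytosol (adjusted p = 1.83e-04 and 0.00111), and the other 8 were not called in either pool. The part of this marker in the results below was not tested.

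PP242 lowered all 10 genes, in polysome RNA and in cytosolic RNA. In polysome RNA the log2 differences from vehicle ran from -2.0 to -0.73 with a median of -1.22, and in cytosolic RNA from -2.02 to -0.70 with a median of -1.08. Over all genes the medians were -0.005 and 0.04. Every gene passed limma's test at an adjusted p under 0.05 in both pools, where 6.55% of all genes were called lower in polysome RNA and 7.91% in cytosolic RNA, and none was called higher, against 6.81% and 8.54% of all genes. For all 10 genes, in both pools, every PP242 array lay below every vehicle array, a pattern found for 9.86% of all genes in polysome RNA and 8.34% in cytosolic RNA. Because these are bulk samples, fewer cells in S phase and less of each mRNA per cell cannot be told apart. The proliferation genes PCNA, CDK1, TOP2A, MKI67 and CCNB1 were all called lower too, at -1.89, -2.26, -0.79, -1.02 and -0.98 in polysome RNA and -2.47, -2.24, -1.45, -0.99 and -1.04 in cytosolic RNA, and their part in the result was not tested. TOP2A lost its polysome call without replicate 4 (-0.69, adjusted p = 0.0586), after cyclic loess (-0.66, adjusted p = 0.0567) and within each pair of numbers (adjusted p = 0.103 with 1 and 2 and 0.0835 with 3 and 4).

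**Figure D1:**
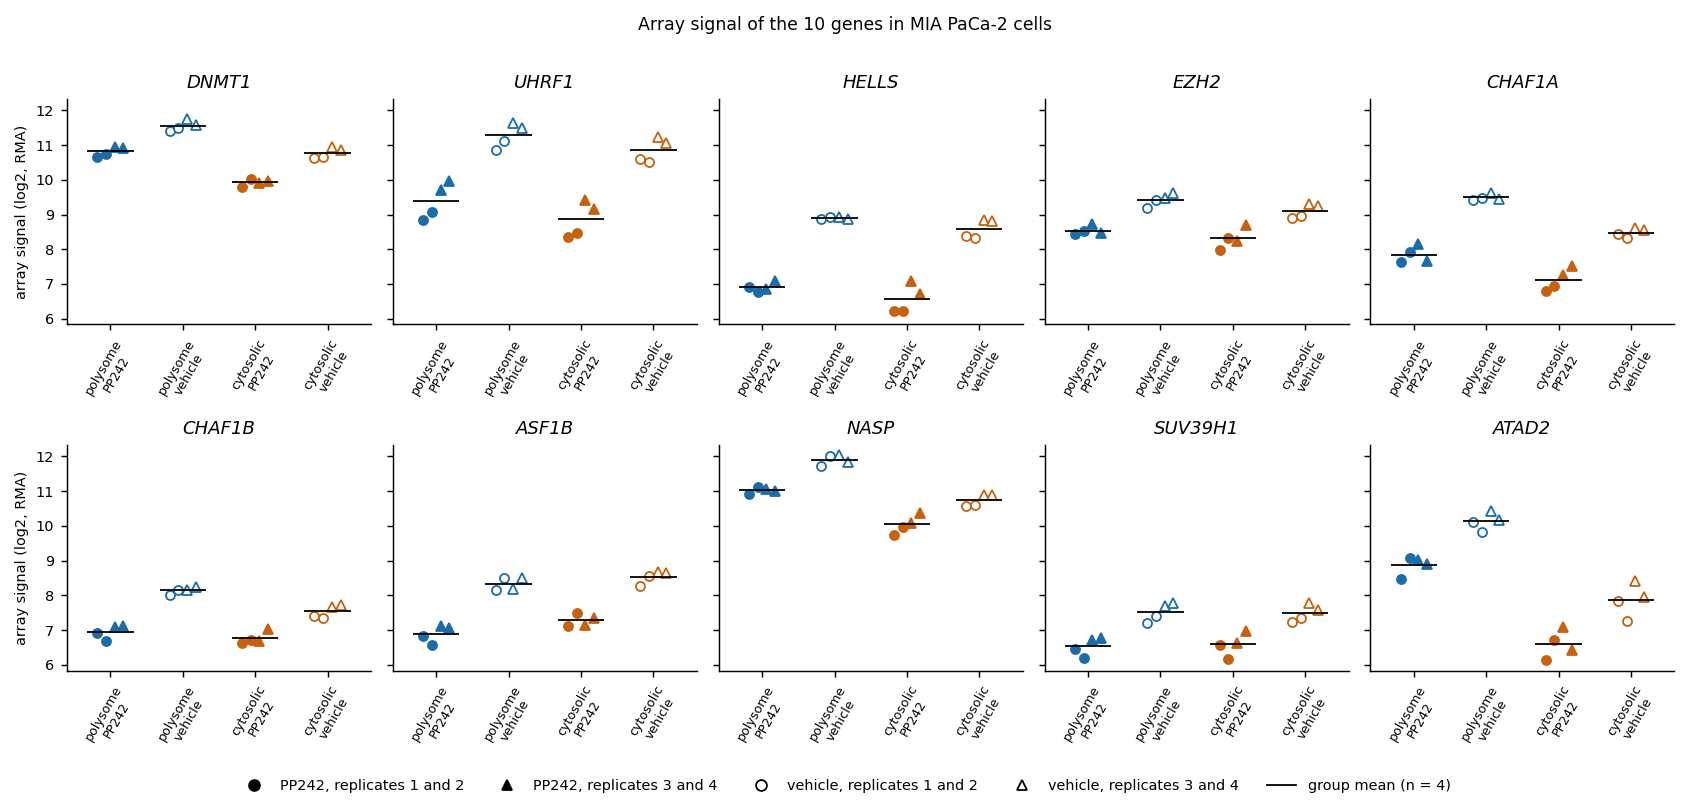
Array signal (log2, RMA) of each of the 10 genes, 1 panel per gene, with every array drawn as a point, polysome RNA in blue, cytosolic RNA in orange, PP242 filled, vehicle open, and the mean of 4 arrays as a line. In each panel the filled points lie below the open points of the same RNA pool, and for UHRF1 the triangles (replicates 3 and 4) lie above the circles (replicates 1 and 2) in every group. Heights are not comparable between panels.

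Among the genes of DNA methylation maintenance, HELLS and UHRF1 had the largest estimated falls of the 10 genes by the probe set that stands for each gene. With all probe sets of a gene averaged, HELLS was at -1.36 on polysomes and -1.62 in the cytosol and ATAD2 at -1.56 and -1.83, while UHRF1, with 1 probe set, kept -1.88 and -1.99. HELLS, the SNF2-family helicase that opens chromatin for methylation, gave 6.90, 6.76, 6.86 and 7.10 in polysome RNA of PP242 cells, against 8.87, 8.94, 8.93 and 8.87 in vehicle cells. The vehicle arrays lay close together (SD 0.04), and the nearest PP242 array was 1.77 below them. The difference was -2.0 ± 0.17 (standard error of the limma contrast, as below), or 3.99-fold lower (adjusted p = 2.68e-07). Cytosolic HELLS read 6.22, 6.22, 7.09 and 6.71 in PP242 cells, against 8.37, 8.31, 8.84 and 8.81 in vehicle cells. Replicates 3 and 4 were higher than 1 and 2 in both cytosolic groups, and the groups still stood 1.22 apart. HELLS was 4.06-fold lower there (-2.02 ± 0.17, adjusted p = 2.38e-07). Of all 19775 genes it ranked 17 from the lowest difference in polysome RNA and 27 in cytosolic RNA.

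UHRF1, the reader of hemimethylated DNA, had the largest standard error of the 10 genes. Its polysome signal was 8.84, 9.08, 9.71 and 9.96 in PP242 cells, against 10.86, 11.12, 11.63 and 11.49 in vehicle cells. Replicates 3 and 4 were higher than 1 and 2 on both sides, and the lowest vehicle array still lay 0.90 above the highest PP242 array. The difference was -1.88 ± 0.27, a 3.67-fold lower level (adjusted p = 7.13e-05). In cytosolic RNA, UHRF1 was at 8.36, 8.47, 9.43 and 9.17 in PP242 cells and at 10.61, 10.5, 11.22 and 11.07 in vehicle cells. The same split by replicate number appeared, with a gap of 1.07 between the groups. This amounted to -1.99 ± 0.27, or 3.98-fold lower (adjusted p = 3.62e-05).

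DNMT1, the methyltransferase that UHRF1 recruits, had a smaller estimate than either of them. It gave 10.67, 10.74, 10.95 and 10.92 on polysomes of PP242 cells, against 11.4, 11.48, 11.74 and 11.59 on those of vehicle cells. All 4 PP242 arrays were lower, and the difference was -0.73 ± 0.11 (1.66-fold lower, adjusted p = 1.44e-04). In the cytosol the signals were 9.79, 10.03, 9.92 and 9.96 in PP242 cells, against 10.62, 10.67, 10.95 and 10.85 in vehicle cells. The PP242 arrays varied little (SD 0.10) and did not reach the vehicle range, and DNMT1 was 1.80-fold lower (-0.85 ± 0.11, adjusted p = 2.95e-05).

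The histone H3 methyltransferases EZH2 and SUV39H1 were both lower in both pools, with estimates between -0.99 and -0.79. EZH2, the catalytic subunit of polycomb repressive complex 2, which methylates a lysine of the histone H3 tail, measured 8.45, 8.52, 8.72 and 8.46 in polysome RNA of PP242 cells, against 9.18, 9.42, 9.49 and 9.61 in vehicle cells. The groups were 0.46 apart and the difference was -0.89 ± 0.15 (1.85-fold lower, adjusted p = 3.90e-04). In cytosolic RNA EZH2 gave 7.97, 8.31, 8.25 and 8.71 in PP242 cells and 8.9, 8.95, 9.3 and 9.26 in vehicle cells. Here replicate 4 of the PP242 group came within 0.19 of the lowest vehicle array, and the difference was -0.79 ± 0.15 (1.73-fold lower, adjusted p = 0.00106).

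SUV39H1, which methylates histone H3 at pericentric heterochromatin, gave 6.44, 6.2, 6.7 and 6.78 on polysomes of PP242 cells, against 7.19, 7.39, 7.69 and 7.79 in vehicle cells. Both groups were spread over a similar range (SD 0.26 and 0.28) without overlap, and SUV39H1 was 1.98-fold lower (-0.99 ± 0.18, adjusted p = 8.90e-04). Its cytosolic signal was 6.57, 6.17, 6.63 and 6.98 in PP242 cells and 7.23, 7.34, 7.77 and 7.59 in vehicle cells. The gap between the groups was 0.25, and the difference was -0.90 ± 0.18 (1.86-fold lower, adjusted p = 0.00197).

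Of the histone chaperones, CHAF1A and ASF1B fell further than CHAF1B in both pools by their estimates, and differences between genes were not tested. NASP had the smallest estimates by the probe set that stands for it, but with its probe sets averaged its cytosolic estimate, -0.82, was beyond the -0.78 of CHAF1B. CHAF1A, the large subunit of CAF-1, had 7.64, 7.92, 8.16 and 7.66 in polysome RNA of PP242 cells, against 9.43, 9.48, 9.63 and 9.45 in vehicle cells. The groups were 1.27 apart, and the difference was -1.65 ± 0.15 (3.14-fold lower, adjusted p = 5.14e-07). Cytosolic CHAF1A was 6.79, 6.94, 7.26 and 7.51 in PP242 cells and 8.45, 8.31, 8.62 and 8.55 in vehicle cells. The PP242 arrays were more spread (SD 0.32 against 0.13), and the level was 2.56-fold lower (-1.36 ± 0.15, adjusted p = 4.81e-06).

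CHAF1B, the middle subunit of CAF-1, gave 6.91, 6.69, 7.1 and 7.11 on polysomes of PP242 cells, against 8.01, 8.16, 8.15 and 8.23 in vehicle cells. The vehicle arrays were tight (SD 0.09) and 0.90 above the PP242 arrays, and CHAF1B was 2.27-fold lower (-1.18 ± 0.13, adjusted p = 3.64e-06). In the cytosol it gave 6.64, 6.7, 6.67 and 7.02 in PP242 cells and 7.4, 7.36, 7.66 and 7.73 in vehicle cells. Replicate 4 of the PP242 group stood above the other 3 and still 0.34 below the vehicle arrays, for a difference of -0.78 ± 0.13 (1.72-fold lower, adjusted p = 3.16e-04).

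ASF1B, the replication-linked form of the chaperone that hands histones to CAF-1, read 6.83, 6.58, 7.11 and 7.07 in polysome RNA of PP242 cells, against 8.16, 8.5, 8.19 and 8.51 in vehicle cells. The groups were 1.05 apart, and the difference was -1.44 ± 0.14 (2.72-fold lower, adjusted p = 1.29e-06). Its cytosolic values were 7.12, 7.5, 7.14 and 7.34 in PP242 cells and 8.28, 8.57, 8.66 and 8.63 in vehicle cells. They did not overlap, and ASF1B was 2.39-fold lower (-1.26 ± 0.14, adjusted p = 5.72e-06). By the probe set that stands for each gene, ASF1B, unlike the other 9, had its highest group mean in cytosolic vehicle RNA (8.54 ± 0.17 SD). Its difference from polysome vehicle RNA was not called by limma (adjusted p = 0.264). All other HELLS probe sets, a NASP probe set (242918_at) and an ATAD2 probe set (228401_at) were also highest in cytosolic vehicle RNA.

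NASP, the histone-binding protein that protects the soluble pool of H3 and H4, gave 10.91, 11.13, 11.06 and 11.0 on polysomes of PP242 cells, against 11.71, 12.00, 12.04 and 11.84 in vehicle cells. The PP242 arrays lay within a narrow range (SD 0.09) and 0.58 below the vehicle arrays, a difference of -0.87 ± 0.13 (1.83-fold lower, adjusted p = 1.19e-04). Cytosolic NASP was 9.74, 9.97, 10.07 and 10.37 in PP242 cells and 10.57, 10.60, 10.89 and 10.89 in vehicle cells. The gap was 0.20, between replicate 4 of the PP242 group and replicate 1 of the vehicle group, and NASP was 1.62-fold lower (-0.70 ± 0.13, adjusted p = 9.31e-04). ATAD2, the bromodomain ATPase, measured 8.48, 9.07, 9.03 and 8.91 on polysomes of PP242 cells, against 10.12, 9.82, 10.42 and 10.16 in vehicle cells. The groups were 0.75 apart, and the difference was -1.26 ± 0.22 (2.39-fold lower, adjusted p = 6.15e-04). In cytosolic RNA ATAD2 gave 6.13, 6.72, 7.08 and 6.42 in PP242 cells and 7.85, 7.27, 8.41 and 7.94 in vehicle cells. The replicates were spread (SD 0.41 and 0.47), the groups were 0.19 apart, and the difference was -1.28 ± 0.22 (2.43-fold lower, adjusted p = 5.03e-04).

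All 10 genes had a higher mean at replicate numbers 3 and 4 than at 1 and 2, averaged over the 4 groups, by 0.73 for UHRF1, 0.42 for SUV39H1 and 0.36 for ATAD2. The share of all genes with this direction was not computed. Outside the 10, SUZ12 and MCM2 were also higher (0.38 and 0.36), while ASF1A and PHF19 were lower (-0.41 and -0.23). Because of this split by number, the PP242 difference was also taken within each pair of numbers. In polysome RNA the median over the 10 genes was -1.24 with numbers 1 and 2 and -1.17 with numbers 3 and 4, and in cytosolic RNA it was -1.01 and -1.08. UHRF1 was at -2.03 and -1.72 on polysomes and at -2.14 and -1.84 in the cytosol. All 10 genes were called lower in both pools within both pairs, where the highest adjusted p was 0.0197 on polysomes (EZH2) and 0.0435 in the cytosol (NASP), both with numbers 3 and 4. Of all 19775 genes, 1043 were called lower on polysomes and 1267 in the cytosol with numbers 1 and 2. With numbers 3 and 4 these counts were 483 and 603. Without replicates 2 and 4 of cytosolic PP242 RNA, the median in cytosolic RNA was -1.13 and again all 10 genes were called lower. In that setting 1304 of all genes were called lower in the cytosol.

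HELLS, CHAF1A, NASP and ATAD2 have 12 further probe sets on the array. Fitted one by one, 10 of the 12 were called lower in polysome RNA and 10 of 12 in cytosolic RNA, where 5.29% and 6.95% of all 41091 single-gene probe sets were. The same 2 were not called in either pool. One is a CHAF1A probe set (229808_at) that stayed between 2.70 and 3.21 on all arrays and differed by -0.17 ± 0.09 on polysomes and -0.11 ± 0.09 in the cytosol. The other is a NASP probe set (242918_at) that varied too much to resolve a change, at -0.05 ± 0.51 and -0.40 ± 0.51. The remaining NASP probe set (201969_at) showed -1.41 ± 0.17 and -1.35 ± 0.17, larger than the -0.87 and -0.70 of the probe set that stands for the gene. The 3 other ATAD2 probe sets showed between -1.77 and -1.53 on polysomes and between -2.22 and -1.82 in the cytosol. The 4 other HELLS probe sets showed between -1.57 and -0.58 on polysomes and between -2.50 and -0.52 in the cytosol, the smallest from a dim probe set (234040_at).

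Whether PP242 changed the share of each mRNA on polysomes was asked with the interaction term, the polysome difference minus the cytosolic difference. None of the 10 genes was called by limma, and 1 had an unadjusted p under 0.05. Over all 19775 genes 0.0% were called and 8.85% had an unadjusted p under 0.05. For 6 of the 10 genes the polysome fall was the larger one, and for 4 the cytosolic fall was. By the probe set that stands for each gene, CHAF1B had the largest estimate, -0.41 with a 95% interval of -0.79 to -0.02 (adjusted p = 0.558). CHAF1A followed at -0.29 (-0.74 to 0.15), and ASF1B, NASP, EZH2 and SUV39H1 lay between -0.18 and -0.09. HELLS was at 0.02 (-0.49 to 0.54), ATAD2 at 0.02 (-0.64 to 0.68), DNMT1 at 0.11 (-0.21 to 0.44) and UHRF1 at 0.12 (-0.67 to 0.90). The intervals were widest for UHRF1 and narrowest for DNMT1, and a difference between pools inside them was not detectable with 4 arrays a group. The median over the 10 genes was -0.09, against -0.04 for all genes. Single probe sets gave larger estimates, also not called, of 0.93 ± 0.36 for HELLS (227350_at, adjusted p = 0.564) and -0.56 ± 0.23 for CHAF1A (203976_s_at, adjusted p = 0.564).

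**Figure D2:**
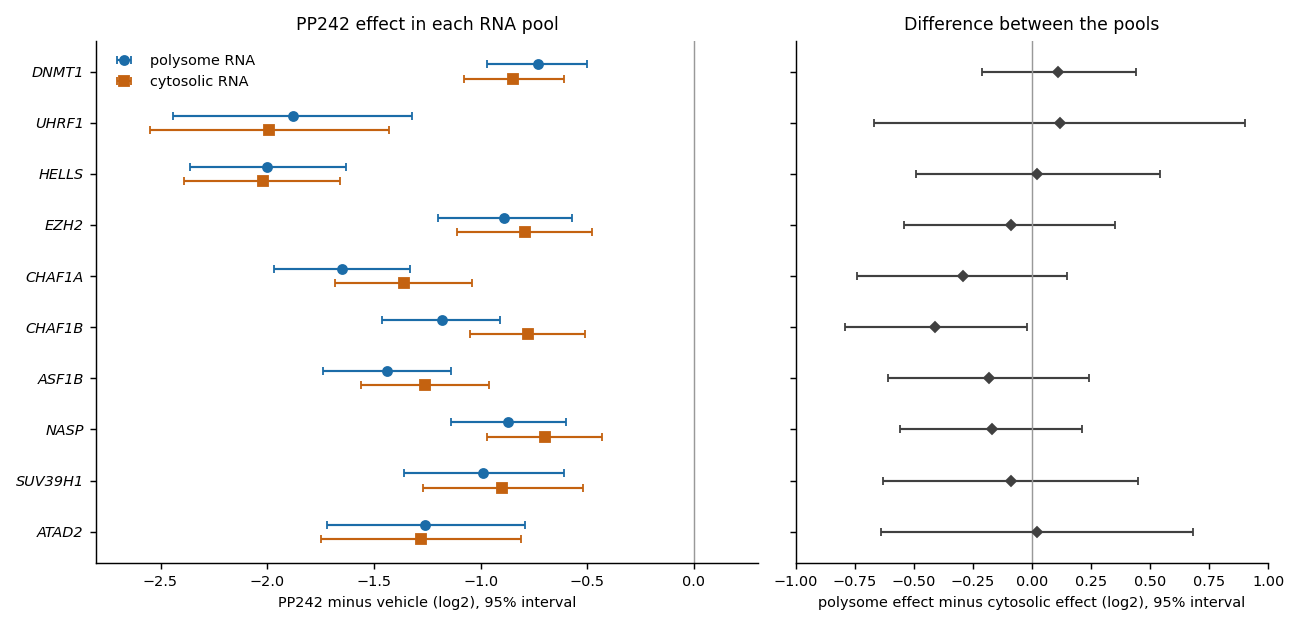
Left, PP242 minus vehicle (log2) of the 10 genes in polysome RNA (blue circles) and cytosolic RNA (orange squares). Right, the polysome difference minus the cytosolic one. Bars are 95% intervals from limma over 16 arrays. All intervals on the left lie below 0, while on the right the interval of CHAF1B leaves out 0 (-0.79 to -0.02).

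Where the mRNAs lay between polysome and cytosolic RNA depends on how the pools were scaled. In the deposited values the median gene was at -0.18 (polysome minus cytosolic) in PP242 cells and at -0.158 in vehicle cells, whereas it was at -0.001 and 0.013 after quantile normalization of all arrays. The medians of the 10 genes were 0.44 in PP242 cells and 0.51 in vehicle cells. In PP242 cells 4 of the 10 were called higher on polysomes and 1 lower, where 16.1% and 38.1% of all genes were, and in vehicle cells 5 were called higher and 0 lower, where 16.8% and 35.9% were. After quantile normalization 4507 genes were called higher and 4669 lower in PP242 cells, against 3175 and 7527 in the deposited values, and in vehicle cells 4623 and 4294 against 3328 and 7104. With replicate number as a block, which treats arrays of the same number as pairs, 6 genes were called higher in PP242 cells and 7 in vehicle cells, where 18.8% and 19.5% of all genes were. UHRF1 was not called without the block and was called with it, at 0.54 in PP242 cells (adjusted p = 0.0945 without and 3.67e-04 with) and 0.42 in vehicle cells (adjusted p = 0.19 and 0.00272). The same held for HELLS in PP242 cells (0.34, adjusted p = 0.101 and 0.0356) and EZH2 in vehicle cells (0.32, adjusted p = 0.0772 and 0.019). HELLS in PP242 cells was also called without replicate 3 (0.54, adjusted p = 0.0159) and after quantile normalization (0.55, adjusted p = 0.0246), and EZH2 was called in both treatments without replicates 2 and 4 of cytosolic PP242 RNA (0.43 in PP242 cells and 0.32 in vehicle cells, adjusted p = 0.0263 and 0.0331).

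ATAD2 had 2.28 ± 0.22 in PP242 cells and 2.26 ± 0.22 in vehicle cells, the highest of all genes in vehicle cells, and every polysome array lay above every cytosolic array. Its other probe sets gave smaller differences, 0.43 to 1.10 in PP242 cells and -0.02 to 0.62 in vehicle cells, so the size belongs to 1 probe set. NASP showed the same dependence, with 0.99 ± 0.13 and 1.16 ± 0.13 for the probe set that stands for the gene and -0.03 ± 0.17 and 0.03 ± 0.17 for another. DNMT1 stood at 0.89 ± 0.11 and 0.78 ± 0.11 and CHAF1A at 0.72 ± 0.15 and 1.01 ± 0.15, each with all polysome arrays above all cytosolic arrays in both treatments. The other CHAF1A probe sets gave smaller values, 0.14 to 0.34 in PP242 cells, none of them called, and 0.20 to 0.90 in vehicle cells, and with numbers 3 and 4 only CHAF1A was not called in PP242 cells (0.52, adjusted p = 0.0675). CHAF1B was at 0.19 ± 0.13 in PP242 cells (adjusted p = 0.211) and 0.60 ± 0.13 in vehicle cells (adjusted p = 7.44e-04), the same contrast as in the interaction above, which was not called. In PP242 cells CHAF1B was called higher on polysomes after quantile normalization (0.39, adjusted p = 0.019) and cyclic loess (0.32, adjusted p = 0.0459). ASF1B was the gene called lower on polysomes in PP242 cells, at -0.38 ± 0.14 (adjusted p = 0.0324), and it was at -0.20 in vehicle cells (adjusted p = 0.264). The call in PP242 cells was lost without replicate 1, 2 or 4 (adjusted p = 0.0583, 0.323 and 0.0619) and after quantile normalization (-0.24, adjusted p = 0.143). SUV39H1 was near 0 in both (-0.06 and 0.03). HELLS differed in sign between probe sets in vehicle cells, with 0.32 for the one that stands for the gene against -0.90 ± 0.26 (227350_at, adjusted p = 0.00726) and -0.68 ± 0.25 (220085_at, adjusted p = 0.0306) for 2 others. Over all 12 further probe sets, 2 were called higher and 10 not in PP242 cells, and 4 higher, 2 lower and 6 not in vehicle cells.

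**Figure D3:**
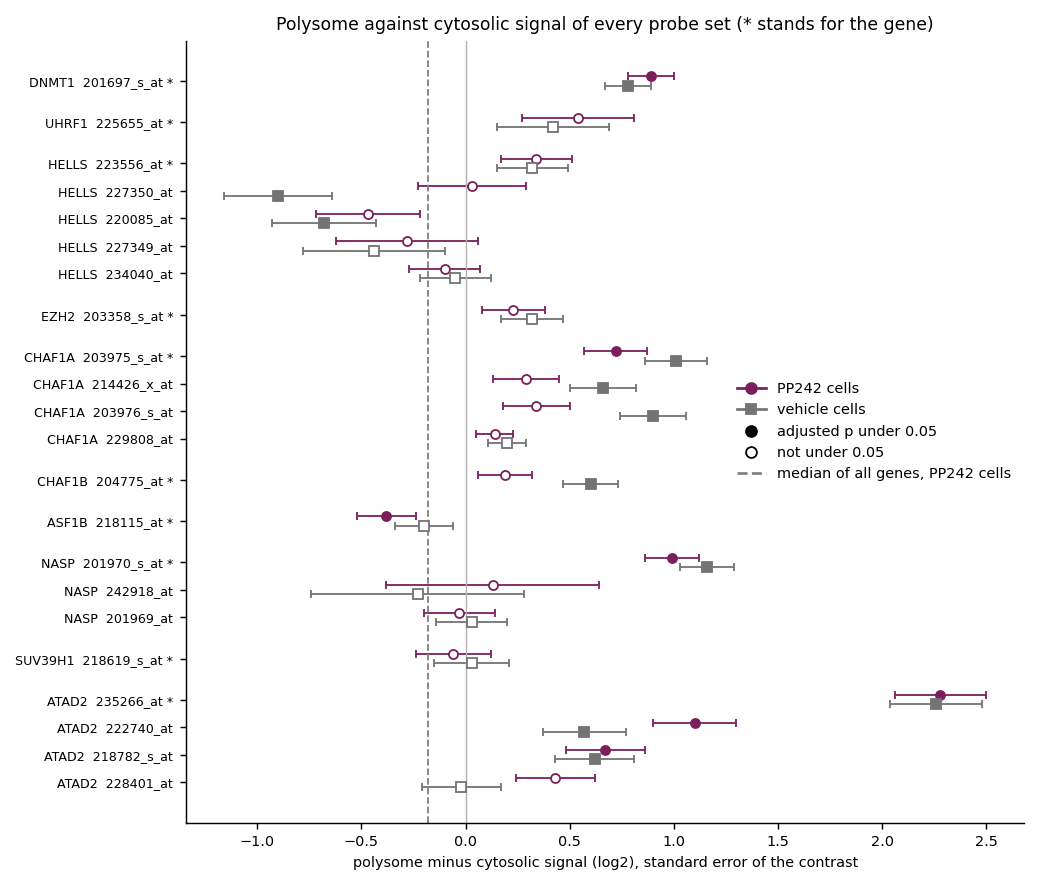
Polysome minus cytosolic signal (log2) of every single-gene probe set of the 10 genes, in PP242 cells (purple circles) and vehicle cells (grey squares), with the standard error of the limma contrast. Filled points have an adjusted p under 0.05 over 41091 probe sets, an asterisk marks the probe set that stands for the gene, and the dashed line is the median of all genes in PP242 cells (-0.18). ATAD2 lies at 2.28 and 2.26 by its starred probe set and at 1.10 or lower by its others.

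Genes of related chromatin functions were lower more often than higher, and most were not called. Their lists were chosen with earlier results of these data known. Of 63 genes in 5 lists around DNA methylation, polycomb complex 2, lysine methylation and heterochromatin, histone chaperones, and remodelling, 61 were measured and the other 2 were not analysed here. Over all genes 6.55% were called lower and 6.81% higher on polysomes, and 7.91% and 8.54% in the cytosol. In polysome RNA 22 of the 61 were called lower, 3 higher and 36 not (median -0.21), and in cytosolic RNA 23 lower, 3 higher and 35 not (median -0.33). Without replicate 2, 1 was called higher in the cytosol, where 658 of all 19775 genes were. With numbers 3 and 4 only, 12 were lower and 1 higher on polysomes and 11 lower and 1 higher in the cytosol. Over all 19775 genes, 483 were then lower and 602 higher on polysomes, and 603 and 455 in the cytosol. Histone chaperones held the most calls on polysomes, with 9 of 17 lower and 0 higher (median -0.58), against 5 lower in cytosolic RNA (median -0.33). HAT1, which acetylates new histone H4, was at -1.57 ± 0.13 on polysomes and -1.85 ± 0.13 in the cytosol, DNAJC9, a histone co-chaperone, at -1.30 ± 0.10 and -1.43 ± 0.10, and HJURP, the chaperone of the centromeric histone, at -0.96 ± 0.14 and -0.75 ± 0.14. ASF1A, the other ASF1 form, was at -0.89 ± 0.19 and -0.88 ± 0.19, and RBBP4, the histone-binding subunit of CAF-1 and of polycomb complex 2, at -0.87 ± 0.21 and -1.14 ± 0.21. All of these were called in both pools, although RBBP4 lost its polysome call without replicate 2 (-0.85, adjusted p = 0.0656) and after quantile normalization (-0.71, adjusted p = 0.0549). With numbers 3 and 4 only, RBBP4 was called neither on polysomes (-0.88, adjusted p = 0.18) nor in the cytosol (-1.24, adjusted p = 0.0659).

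In the polycomb list 4 of 9 were lower and 1 higher on polysomes (median -0.34), and 6 lower and 1 higher in the cytosol (median -0.53). For this and the lists that follow, the shares over all genes were 6.55% lower and 6.81% higher on polysomes. In the cytosol they were 7.91% and 8.54%. EED, the subunit that reads the mark EZH2 writes, was at -1.27 ± 0.10 and -1.06 ± 0.10 (adjusted p = 9.66e-08 and 8.23e-07), and PHF19, which tethers the complex, at -1.03 ± 0.19 and -0.72 ± 0.19. The cytosolic call of PHF19 was lost without replicate 1 (adjusted p = 0.0615) and with that pool fitted alone (adjusted p = 0.0562). With numbers 3 and 4 only, PHF19 was called in neither pool (adjusted p = 0.067 on polysomes and 0.134 in the cytosol). SUZ12, the scaffold subunit, was called in cytosolic RNA (-0.84 ± 0.18, adjusted p = 0.00326, and -0.32, adjusted p = 0.167, when its probe sets were averaged) and not on polysomes (-0.46 ± 0.18, adjusted p = 0.112, and 0.00596 with the replicate block). Array weights also gave SUZ12 a polysome call (adjusted p = 0.0205), and numbers 3 and 4 only ended its cytosolic call (adjusted p = 0.0563). Among 15 methylation genes 4 were lower and 1 higher on polysomes (median -0.03), and 5 lower and 1 higher in the cytosol (median -0.25). PCLAF, a PCNA partner, stood at -1.07 ± 0.11 and -0.94 ± 0.11, and CDCA7, the partner of HELLS, at -0.63 ± 0.13 in both pools, which was not called when all its probe sets were averaged (-0.51 on polysomes and -0.54 in the cytosol, adjusted p = 0.165 and 0.114). Among 12 genes of lysine methylation and heterochromatin 4 were lower and 1 higher in each pool (medians -0.18 and -0.23), with the HP1 proteins CBX1 at -0.90 ± 0.12 and -0.86 ± 0.12 and CBX5 at -0.58 ± 0.14 and -0.67 ± 0.14. CBX5 lost its polysome call without replicate 1 or 4 (adjusted p = 0.115 and 0.0668) and after quantile normalization (adjusted p = 0.051). Its polysome call was also lost with numbers 1 and 2 only and with 3 and 4 only (adjusted p = 0.0921 and 0.0833). With numbers 3 and 4 only, its cytosolic call was lost too (adjusted p = 0.14). Of 8 remodelling and deacetylation genes, 1 was lower on polysomes, the deacetylase HDAC1 (-0.62 ± 0.11, and -0.28 ± 0.11 in the cytosol, adjusted p = 0.0928), and 3 were lower in the cytosol. Cytosolic HDAC1 was called with the block (adjusted p = 0.0351) and without replicates 2 and 4 of cytosolic PP242 RNA (-0.39, adjusted p = 0.0454). The polysome call of HDAC1 was lost with numbers 3 and 4 only (-0.59, adjusted p = 0.0788).

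**Figure D4:**
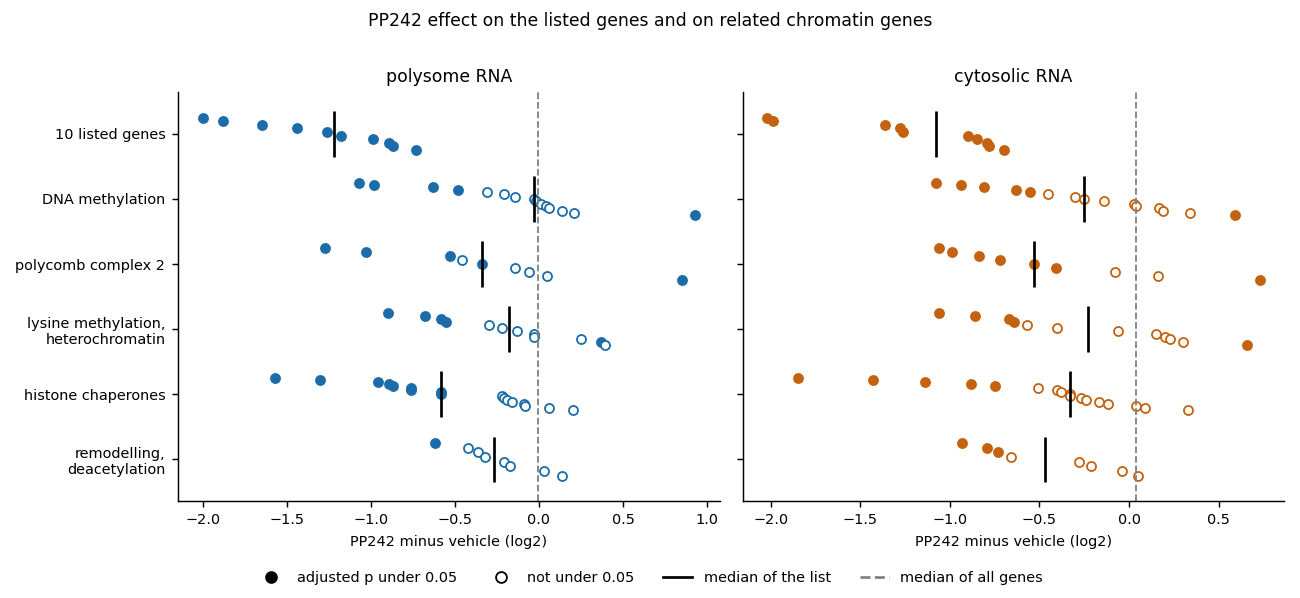
PP242 minus vehicle (log2) of the 10 genes and of the measured genes of 5 related lists, in polysome RNA (left) and cytosolic RNA (right). Each point is a gene, filled where the adjusted p was under 0.05, with the list median as a black bar and the median of all genes as a dashed line. The 10 genes are all filled and lie at -0.70 or lower, while each related list also holds genes near or above 0. The genes and lists were chosen with earlier results of these data known.

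Not all paralogs of the 10 genes were lower. UHRF2, the relative of UHRF1, was called higher. It gave 9.61, 9.63, 10.19 and 9.59 on polysomes of PP242 cells, against 8.53, 8.8, 9.05 and 8.91 in vehicle cells, a difference of 0.93 ± 0.19 without overlap (1.91-fold higher, adjusted p = 0.00229). With numbers 3 and 4 only, UHRF2 was not called on polysomes (0.91, adjusted p = 0.131). Its cytosolic difference was 0.59 ± 0.19 (adjusted p = 0.0423), and leaving out replicate 1 or 2 ended that call (adjusted p = 0.17 and 0.157), as did cyclic loess normalization (adjusted p = 0.057). The cytosolic call was also lost with numbers 3 and 4 only (adjusted p = 0.398) and with that pool fitted alone (adjusted p = 0.0973). EZH1, the relative of EZH2 found in resting cells, was also higher, with 8.49, 8.35, 8.61 and 8.18 on polysomes of PP242 cells, against 7.64, 7.56, 7.62 and 7.43 in vehicle cells. That was 1.80-fold higher (0.85 ± 0.13, adjusted p = 1.74e-04), and in the cytosol the difference was 0.73 ± 0.13 (adjusted p = 6.59e-04). UHRF2 and EZH1 thus had the sign opposite to that of UHRF1 and EZH2 in both pools.

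The de novo methyltransferases split. DNMT3B was lower, at -0.98 ± 0.15 on polysomes and -1.08 ± 0.15 in the cytosol (adjusted p = 1.60e-04 and 5.60e-05). DNMT3A was at 0.14 ± 0.12 and 0.34 ± 0.12 and passed the threshold in neither (adjusted p = 0.583 and 0.0548), although with the replicate block its cytosolic value did (adjusted p = 0.0267), as it did with a minimum mean of 5 (adjusted p = 0.0321) and with no intensity trend (adjusted p = 0.0428). SUV39H2 was lower in both pools, at -0.68 ± 0.12 and -1.06 ± 0.12. ATAD2B was at -0.36 ± 0.23 and -0.66 ± 0.23 and was not called (adjusted p = 0.403 and 0.0552), while the block gave adjusted p = 0.0427 and 4.88e-04. Its cytosolic value was also called under 6 other alternatives, quantile normalization, the mean of probe sets, a minimum mean of 5, array weights, without replicate 3 and numbers 1 and 2 only (estimates -0.89 to -0.35, adjusted p = 0.00639 to 0.0494, and 0.0273 without replicate 3). Differences between a gene and its paralog were not tested. Among these relatives and partners, the E2F letters also lay in the windows of CDCA7, called lower in both pools, SUZ12, called lower in the cytosol, and EZH1, called higher in both, and over all related genes in 10 of the 56 with a window.

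**Figure D5:**
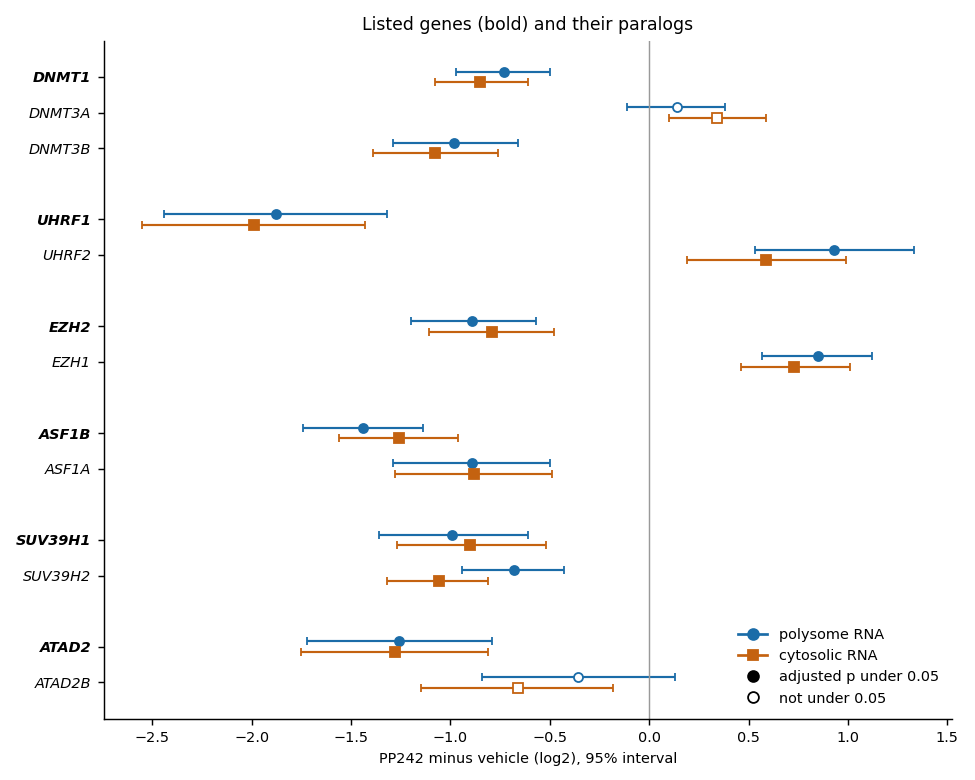
PP242 minus vehicle (log2, 95% interval from limma) of 6 of the 10 genes (bold) and their paralogs, in polysome RNA (blue circles) and cytosolic RNA (orange squares), filled where the adjusted p was under 0.05. UHRF2 and EZH1 lie above 0, at 0.93 and 0.85 on polysomes, opposite to UHRF1 and EZH2 at -1.88 and -0.89.

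The genes whose signal over the 16 arrays was most like the mean of the 10, each centred on its own mean, were TIMELESS (Pearson r = 0.993), FANCI (0.991), GMNN (0.987), MCM2 (0.986) and MCM6 (0.985). TIMELESS, MCM2 and MCM6 act at the replication fork, FANCI in crosslink repair and GMNN in licensing control. Their PP242 differences were -1.16, -1.18, -1.72, -1.36 and -1.11 on polysomes and -1.10, -1.22, -2.02, -1.25 and -1.13 in the cytosol. The correlation is a description over arrays that share 4 groups and the same processing. In group means of the probe set that stands for each gene, polysome RNA of vehicle cells was the highest of the 4 groups for 9 of the 10 genes, all but ASF1B. PP242 cytosolic RNA was the lowest for 8, all but ASF1B and SUV39H1, for which PP242 polysome RNA was. The order of the pools depends on their scaling and on the probe set, and its share over all genes was not computed. With its probe sets averaged, HELLS was at -0.35 (polysome minus cytosolic) in vehicle cells. Neighbouring groups in that order did not always differ: in vehicle cells, polysome and cytosolic RNA were not told apart by the test for UHRF1, HELLS, EZH2, ASF1B and SUV39H1 (adjusted p = 0.19, 0.129, 0.0772, 0.264 and 0.893), although UHRF1 and EZH2 were called with the block, as given above.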

How the data were processed

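The authors deposited 1 table of 54613 Affymetrix probe sets on 16 arrays, with log2 values between 1.65 and 14.61 and 0 missing, summarised by RMA per the submitters' processing notes. The RMA version and whether both RNA pools were normalized together were not given in the sources used here. Array medians lay between 4.57 and 4.63 in polysome RNA and between 5 and 5.05 in cytosolic RNA. Of the probe sets, 41091 name 1 gene, 1801 several and 11721 none, and for 10523 genes with more than 1 the brightest was used.

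limma 3.58.1 (R 4.3.3) fitted 1 mean per group over all 16 arrays. eBayes used an intensity trend, tests were two-sided, and p-values were adjusted by Benjamini-Hochberg over 19775 genes, with a call at an adjusted p under 0.05. Steps were tested on simulated data. Tables and plots used pandas 2.3.3 and matplotlib 3.10.9. Named genes are the 10 genes, their paralogs and partners, up to 3 called genes per related list with the largest polysome difference, 5 proliferation genes and 5 most correlated genes. The genes and lists were chosen with earlier results of these data known. The main fit, which gave the standard errors and intervals, did not use replicate numbers. The replicate block treated arrays of the same number as pairs, which the labels do not state. In 16 of 16 same-number array pairs of compared groups, deviations from group means correlated above 0.1 (0.164 to 0.51). Over all group pairs it was 23 of 24 (lowest 0.0265). The 72 array pairs of different number ran from -0.504 to 0.447. These ranges overlap, so the pairing by number is an assumption. Alternatives were the replicate block, quantile and cyclic loess normalization, all probe sets, a minimum mean of 5, array weights and no trend. Others were left-out replicates, pairs of numbers, 1 RNA pool alone and, for the interaction, a block of treatment with replicate number. That block assumes that polysome and cytosolic RNA of the same treatment and number came from the same culture, which the labels do not say.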

Additional observations from a re-analysis of the deposited data

Results flagged for a closer look

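Each group of 4 arrays of 34 named genes was searched for an array far from the other 3 (gap over range above Dixon's limit). Of 136 groups, 4 met this (2.94%), while chance gives about 1 in 20. For CHAF1B, replicate 4 of cytosolic PP242 RNA read 7.02, with the others between 6.64 and 6.7. That array also had the lowest array weight, 0.251, and without replicates 2 and 4 of that group CHAF1B was still called lower. For UHRF2, replicate 3 of polysome PP242 RNA read 10.19, with the others between 9.59 and 9.63. For EED, replicate 1 of polysome vehicle RNA read 9.45, with the others at 9.6. For PCNA, replicate 1 of cytosolic vehicle RNA read 11.44, with the others at 11.31 and 11.32.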

How the results depend on the processing

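All 10 genes were called lower by PP242 in both pools under every alternative that gives 1 value per gene, and by 10 of 12 other probe sets. The replicate block, which assumes pairing by number, changed no call among the 10 for either PP242 difference or the interaction. It raised genes called lower to 1919 on polysomes (1295 without) and 2174 in the cytosol (1564), and those called higher to 2094 (1346) and 2755 (1689). With numbers 3 and 4 only these counts were lowest, 483 and 603 lower and 602 and 455 higher. Without replicate 2, 774 were lower on polysomes and 885 in the cytosol, where 658 were higher, and without replicate 4, 918 and 686 in the cytosol. Genes called higher on polysomes were 822, 852 and 811 without replicate 1, 2 or 3, and in the cytosol 1113 with array weights, 672 without replicates 2 and 4 of cytosolic PP242 RNA and 965 fitted on that pool alone. No alternative called an interaction among the 10, and averaging probe sets called 1 gene in all. The 1 gene called lower on polysomes in PP242 cells, ASF1B, became 0 under quantile normalization, cyclic loess, array weights, without replicates 2 and 4 of cytosolic PP242 RNA, and with numbers 3 and 4 only, and between 0 and 1 when a replicate was left out. The interaction, not called, changed sign as follows. Quantile normalization gave 0.06 for EZH2, 0.02 for ASF1B and 0.06 for SUV39H1, and array weights 0.04 for EZH2. Without those replicates HELLS was at -0.07 and EZH2 at 0.11. Leaving out 1 replicate gave -0.08 to 0.14 for HELLS, -0.22 to 0.07 for EZH2, -0.39 to 0.04 for ASF1B, -0.17 to 0.01 for SUV39H1 and -0.06 to 0.10 for ATAD2. Numbers 3 and 4 gave 0.14 for ASF1B, numbers 1 and 2 gave -0.06 for ATAD2, and the mean of probe sets 0.04 for NASP. Single probe sets, an alternative chosen after seeing the data, gave -0.05 for HELLS (234040_at) and 0.36 for NASP (242918_at). Polysome minus cytosolic signal changed sign in PP242 cells for HELLS (-0.09 by mean of probe sets, -0.47, -0.28 and -0.10 by single ones), NASP (-0.03 by one) and SUV39H1 (0.17 by quantile, 0.12 by loess). In vehicle cells it did for HELLS (-0.35 by mean, -0.90, -0.68, -0.44 and -0.05 by single ones), NASP (-0.23), ATAD2 (-0.02) and SUV39H1 (-0.01 by array weights, -0.02 without replicate 4). The cause was not tested.

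The number of arrays limits precision, and values near background, such as the CHAF1A probe set 229808_at, cannot resolve a change. RMA values are relative to the arrays normalized together, so a loss shared by all mRNAs is not visible. Whether each pool was normalized alone or both together was not given.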

Other observations

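Some histone chaperones outside the naming rule, chosen after their values were seen, were called lower on polysomes and not in cytosolic RNA. Both subunits of FACT, which moves nucleosomes ahead of polymerases, were among them, SUPT16H at -0.58 ± 0.12 on polysomes (adjusted p = 0.00286) and -0.27 ± 0.12 in the cytosol (adjusted p = 0.144), and SSRP1 at -0.58 ± 0.16 (adjusted p = 0.021) and -0.17 ± 0.16 (adjusted p = 0.513). NAP1L4 was at -0.76 ± 0.14 and -0.33 ± 0.14, and TONSL, which binds new histones at forks, at -0.76 ± 0.15 and -0.33 ± 0.15. The interaction was called for no gene of these lists. In the opposite way, the remodelling ATPase SMARCA5 and its partner BAZ1A were called lower in cytosolic RNA (-0.79 ± 0.17 and -0.93 ± 0.21) and not on polysomes (-0.32 ± 0.17 and -0.21 ± 0.21).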
